A study of Mus musculus with 22 samples.

Results

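The genes described are Trp53, which encodes the transcription factor p53, and 9 of its direct targets: Cdkn1a, Ccng1, Mdm2, Pmaip1, Bbc3, Bax, Perp, Trp53inp1 and Zmat3. They were chosen by gene symbol, with earlier results of these data known. All 10 were found among the 23993 symbols of the first table of expression values and the 23490 symbols of the second. The study compared a pair of ways of growing mouse mammary cells, conditional reprogramming (CRC in the labels) and a medium optimised for mammary cells (EpiC), in culture, in allografts and beside primary mammary cancers. Poly(A) RNA of 22 libraries was sequenced, 16 in the first table and 6 in the second, and gene levels are given in FPKM (fragments scaled to transcript length and library size).

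The 7 CRC allografts, 3 EpiC allografts, 3 CRC cultures and 3 EpiC cultures of the first table came from cells of C57Bl/6 nulliparous females. Every cell donor in the series carried 1 mutant Trp53 allele (p53-/+ or Trp53-/+ in the labels) and an MMTV-Cre transgene, whose mouse mammary tumour virus promoter is active mainly in mammary epithelium. No group with intact Trp53 was analysed here. CRC allograft 6C, EpiC allograft 7B, CRC culture 1 and EpiC culture 1 had the genotype Tet-op-CYP19A1MMTV-rtTA (CYP19A1 below), a tetracycline-controlled aromatase transgene. CRC allografts 1, 2 and 12, CRC culture 3 and EpiC culture 3 were Brca1fl11/fl11 (Brca1hom), with both Brca1 alleles conditional. CRC allografts 10B, 10C and 11C, EpiC allografts 4C and 5A, CRC culture 2 and EpiC culture 2 were Brca1fl 11/WT (Brca1het), with 1 conditional allele. The allografts grew in mammary glands of NU (NCr)-Foxn1nu hosts, which have no thymus, so that they tolerate grafts, and an allograft library can hold host RNA. The second table held 2 CRC cultures of cancers, 2 EpiC cultures of cancers and 2 primary cancers, all Brca1het, with the same number marking the same cancer. The labels do not say which libraries share an animal, and the p-values given here rest on the spread among libraries alone, some of which may be technical.

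p53 is kept low in resting cells by the ubiquitin ligase Mdm2 and is stabilised by DNA damage, oncogene activity and other stress, with little need for new Trp53 mRNA. Stabilised p53 binds DNA as a tetramer and raises transcription of genes that stop the cell cycle (Cdkn1a, which encodes p21), act back on p53 (Mdm2, Ccng1), act on other RNAs (Zmat3) or start apoptosis (Pmaip1, Bbc3, Bax, Perp, Trp53inp1). Loss of p53 function is common in mammary cancers with BRCA1 loss.

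The p53 binding site is made of a pair of half-sites of 10 bases, described by the p53 half-site consensus, with a spacer of 0 to 13 bases between them. RefSeq promoter windows (build GRCm38.p6) were found for 6 of the 10 members, 9 windows in all, and the 250 bases before each start were searched on both strands. Only stretches that matched the consensus at all 10 bases were counted as half-sites. Below are the first 220 of those bases for members that differed strongly between the cultures (Cdkn1a, Ccng1) and members that differed less or did not pass the test (Mdm2, Bax), 5′ to 3′, with half-sites in capitals.
Cdkn1a, chr17:29090729-29090948, plus strand: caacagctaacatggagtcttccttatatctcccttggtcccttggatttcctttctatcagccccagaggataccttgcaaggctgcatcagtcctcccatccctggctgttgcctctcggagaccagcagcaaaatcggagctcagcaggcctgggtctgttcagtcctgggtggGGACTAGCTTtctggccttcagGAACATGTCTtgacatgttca
Ccng1, chr11:40755317-40755536, minus strand: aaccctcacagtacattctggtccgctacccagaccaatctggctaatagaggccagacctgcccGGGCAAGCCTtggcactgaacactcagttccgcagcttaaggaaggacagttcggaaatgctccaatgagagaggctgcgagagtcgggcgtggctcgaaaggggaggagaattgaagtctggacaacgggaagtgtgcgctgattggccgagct
Mdm2, chr10:117710789-117711008, minus strand: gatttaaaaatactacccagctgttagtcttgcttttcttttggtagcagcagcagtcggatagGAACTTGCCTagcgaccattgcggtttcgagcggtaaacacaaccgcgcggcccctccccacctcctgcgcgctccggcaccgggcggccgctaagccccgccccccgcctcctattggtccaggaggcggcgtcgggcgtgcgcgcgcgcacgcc
Bax, chr7:45466929-45467148, minus strand: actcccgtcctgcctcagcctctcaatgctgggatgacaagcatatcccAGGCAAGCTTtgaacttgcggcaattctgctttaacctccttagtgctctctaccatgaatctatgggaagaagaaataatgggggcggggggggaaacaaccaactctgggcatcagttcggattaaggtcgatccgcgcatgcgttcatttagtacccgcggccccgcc
The Cdkn1a window shown held the only full site made of exact half-sites among the 9 windows. Its half-sites start 73 and 51 bases before the annotated start of that window, with a spacer of 12 bases. Ccng1, Mdm2 and Bax each had 1 exact half-site, as did the window of Trp53. Neither the other Cdkn1a window, which lies downstream (first 220 bases at chr17:29093519-29093738), nor the 3 windows of Bbc3 had one. Of all 32851 windows of this length in the table, 7.13% held a half-site and 0.0639% a full site. Such a match is a match of letters and was not tested for binding. Full sites with a mismatch were not searched for. The 10 bases directly before the Ccng1 half-site (agacctgccc) miss the consensus at 1 base and were not counted. The same holds for the 10 bases directly after the second Cdkn1a half-site (tgacatgttc).

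In the libraries as a whole, marker genes of cell types separated the groups. All 10 epithelial markers were detected at a mean of 1 FPKM or more in the CRC and EpiC cultures, but their summed level was 9883, 15983 and 15327 FPKM in CRC cultures 1, 2 and 3 and 2679, 2523 and 16.1 FPKM in EpiC cultures 1, 2 and 3. Krt5 and Krt14, keratin genes of basal epithelium, made up most of the CRC sums and were the 2 epithelial markers called between the cultures (limma log2 differences 10.80 and 6.99, adjusted p = 0.00109 and 0.0452). The other 8 epithelial markers summed to 1181, 2943 and 2458 FPKM in CRC cultures 1, 2 and 3 and to 2344, 2397 and 13.4 FPKM in EpiC cultures 1, 2 and 3. Without the keratin pair CRC culture 1 was thus below EpiC cultures 1 and 2, and Epcam was at 253 FPKM in CRC culture 1 and at 454 FPKM in EpiC culture 1. The 9 fibroblast markers summed to 29.6 to 55.9 FPKM in the CRC cultures and to 3372 to 6317 FPKM in the EpiC cultures. EpiC culture 3 stood apart, with Krt8 at 0.275, Epcam at 0.208 and Cdh1 at 0.106 FPKM, so that the epithelial label had little support from its markers there. In the allografts the epithelial sum was 45.7 to 650.4 FPKM (CRC) and 225 to 909 FPKM (EpiC), and the 9 macrophage markers, at most 86.1 FPKM in any culture of the first table, summed to 3616 to 12136 FPKM (CRC) and 3755 to 11800.3 FPKM (EpiC). No gene of these 3 lists was at 0 in all libraries of a group. In the second table CRC culture of cancer 2 stood apart, with FPKM values summing to 1615927 against at most 710511 in the other 5 libraries.

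**Figure D1:**
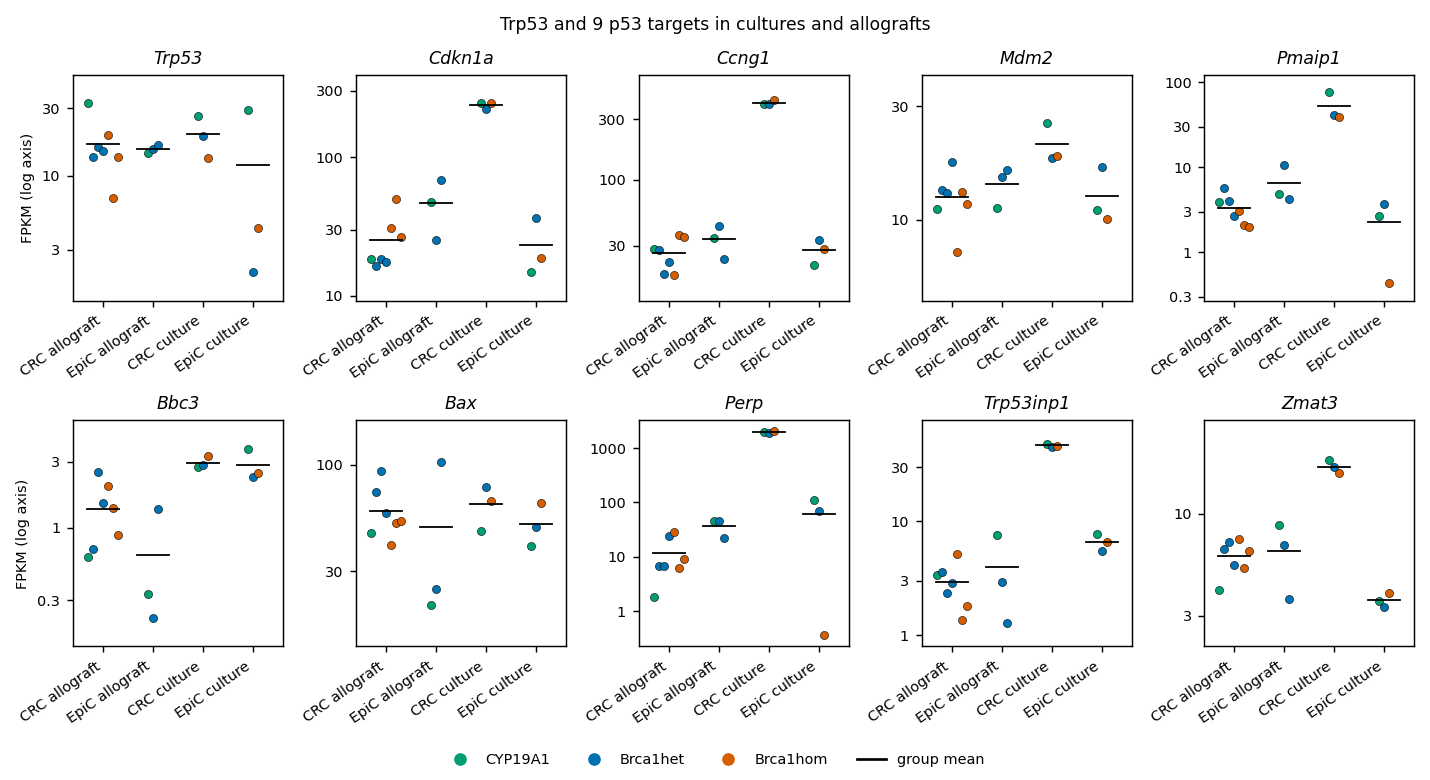
FPKM (log axis) of the 10 members in each library of the first table; points are libraries coloured by genotype and lines are group means. Cdkn1a, Ccng1, Pmaip1, Perp, Trp53inp1 and Zmat3 are high in the 3 CRC cultures (Ccng1 at 394, 397 and 423 FPKM) and low in the other groups.

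In culture, 6 of the 10 members were higher in the CRC cultures than in the EpiC cultures: Cdkn1a, Ccng1, Pmaip1, Perp, Trp53inp1 and Zmat3. Their mean levels were 4.78-fold (Zmat3) to 32-fold (Perp) those of the EpiC cultures. Trp53, Mdm2, Bbc3 and Bax did not pass the test, and no member fell. Over all genes, 23.2% of 11837 were called, 11.4% in the upward direction (limma on log2(FPKM + 1), genotype in the model, Benjamini-Hochberg adjusted p under 0.05 over all genes tested). The median log2 difference of the 10 members was 2.32, against 0.04 over all genes tested. In bulk libraries such as these, fewer cells of a type and less RNA of a gene in each cell cannot be told apart.

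Trp53 itself was at 26.7, 19.3 and 13.3 FPKM in CRC cultures 1, 2 and 3, against 29.4, 2.09 and 4.24 FPKM in EpiC cultures 1, 2 and 3. The groups overlapped, since EpiC culture 1 had the highest value of the 6 while EpiC cultures 2 and 3 were below every CRC culture. The log2 difference of 1.34 ± 0.57 (SE) had a limma adjusted p of 0.149. Low Trp53 mRNA was thus seen in 2 of the 3 EpiC cultures.

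Cdkn1a encodes p21, an inhibitor of cyclin-dependent kinases. It stood at 246, 221 and 244 FPKM in CRC cultures 1, 2 and 3 and at 14.8, 36.5 and 18.9 FPKM in EpiC cultures 1, 2 and 3. The groups did not overlap, and the lowest CRC culture was several times the highest EpiC culture. The log2 difference was 3.39 ± 0.32 (limma adjusted p = 0.00979). In the annotation, a Cdkn1a exon overlaps an exon of AC167363.2 on the opposite strand, and the use of strand in the counting is not given in the sources used here, so reads of both cannot be told apart.

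Ccng1 encodes cyclin G1, which recruits a phosphatase to Mdm2. Its level was 394, 397 and 423 FPKM in the CRC cultures and 21.3, 33.3 and 28.1 FPKM in the EpiC cultures. All 3 CRC cultures lay far above all 3 EpiC cultures. The difference was 3.85 ± 0.19 on the log2 scale (limma adjusted p = 0.00279). Zmat3, which encodes a zinc-finger RNA-binding protein, was at 18.7, 17.2 and 16.1 FPKM in the CRC cultures and at 3.57, 3.35 and 3.93 FPKM in the EpiC cultures. It varied little within either kind of culture and differed by 1.99 ± 0.17 (limma adjusted p = 0.0076). Mdm2, the ubiquitin ligase of p53, was at 25.4, 18.1 and 18.6 FPKM in the CRC cultures and at 11, 16.6 and 10.1 FPKM in the EpiC cultures. Its groups did not overlap, but CRC culture 2 and EpiC culture 2 were close, and the log2 difference of 0.69 ± 0.25 had a limma adjusted p of 0.111.

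The 5 proapoptotic targets were not alike. Pmaip1 encodes Noxa, a BH3-only protein that binds Mcl1. It was at 77.3, 40.9 and 39.2 FPKM in the CRC cultures and at 2.69, 3.67 and 0.431 FPKM in the EpiC cultures, with CRC culture 1 the highest and EpiC culture 3 the lowest, and a log2 difference of 4.13 ± 0.36 (limma adjusted p = 0.00845). Bbc3 encodes Puma, a BH3-only protein that binds all prosurvival members of the BCL2 family. It was at 2.74, 2.83 and 3.27 FPKM in the CRC cultures and at 3.71, 2.31 and 2.46 FPKM in the EpiC cultures, which overlapped (log2 difference 0.06 ± 0.23, limma adjusted p = 0.861). Bax, the effector that permeabilises the mitochondrial outer membrane, was at 47, 77.9 and 66.3 FPKM in the CRC cultures and at 39.9, 49.4 and 64.5 FPKM in the EpiC cultures. These overlapped too (0.31 ± 0.19, limma adjusted p = 0.274). An exon of Bax overlaps one of Gm45808 on the same strand, so part of this level may belong to either.

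Perp encodes a tetraspan membrane protein that is also a component of desmosomes in stratified epithelia and a target of p63. It was the most abundant member, at 1934, 1878 and 2024 FPKM in the CRC cultures, against 112, 70.3 and 0.357 FPKM in the EpiC cultures. EpiC culture 3, the culture with the lowest epithelial markers, was far below the other two. The log2 difference was 6.45 ± 1.38 (limma adjusted p = 0.0392), and 4.41 without EpiC culture 3 (adjusted p = 0.00295). Trp53inp1, which encodes a stress-induced protein that promotes phosphorylation of p53, was at 48.3, 44.6 and 46.4 FPKM in the CRC cultures and at 7.68, 5.54 and 6.63 FPKM in the EpiC cultures. Its spread within each kind of culture was small against the log2 difference of 2.65 ± 0.16 (limma adjusted p = 0.00415).

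Only 2 residual degrees of freedom were left in this comparison, and calls depended on single libraries. Cdkn1a and Ccng1 were called whichever of the 6 cultures was left out, whereas Pmaip1 was not called without CRC culture 1 (adjusted p = 0.0522). Trp53inp1 and Zmat3 were not called without CRC culture 2 (0.0524 and 0.0749) or EpiC culture 2 (0.0503 and 0.0695), and Perp was not called without CRC culture 1 (0.0867), EpiC culture 1 (0.0833), CRC culture 2 (0.124) or EpiC culture 2 (0.119). Leaving out CRC culture 2 or EpiC culture 2 also left 159 and 168 calls over all genes, against 2741 with all 6. Fibroblast markers and the basal keratins Krt5 and Krt14 differed between the same 6 libraries, and their part in these differences was not tested. The sum of the other 8 epithelial markers did not separate the groups, with EpiC cultures 1 and 2 between CRC cultures 1 and 3.

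**Figure D2:**
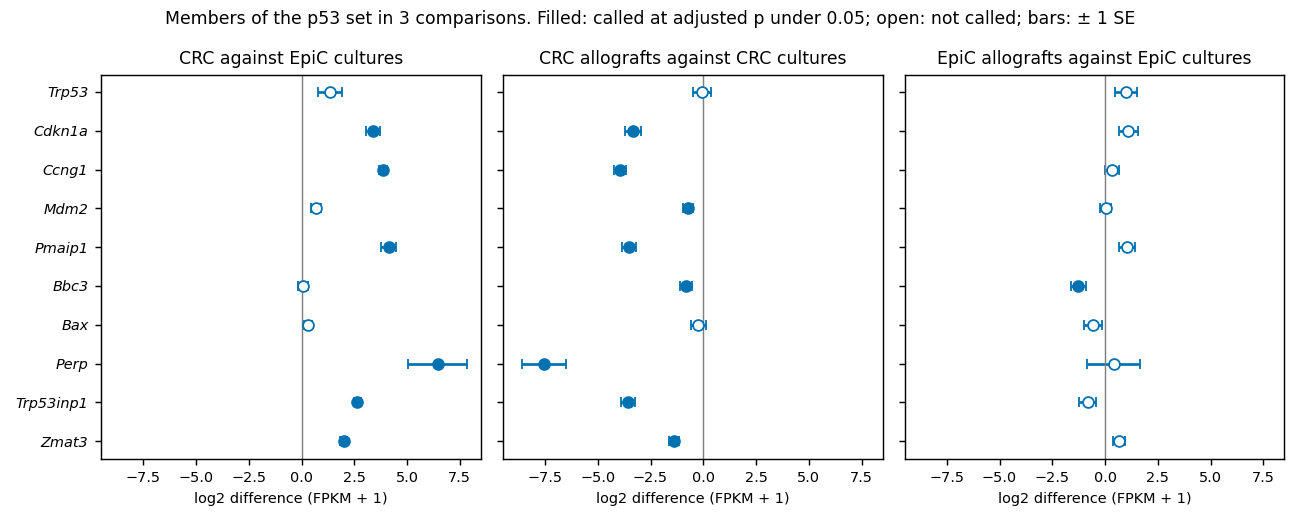
Log2 difference (FPKM + 1, ± 1 SE) of each member in CRC against EpiC cultures (left), CRC allografts against CRC cultures (middle) and EpiC allografts against EpiC cultures (right); filled points were called. The 6 members called at left, from 1.99 to 6.45, are among the 8 called in the middle panel, and 1 member, Bbc3 at −1.27, is called at right.

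Among 36 other known p53 targets, 34 could be tested in the cultures, of which 14 rose and 5 fell in the CRC cultures, where 11.4% of all genes rose and 11.7% fell. Their median log2 difference was 0.45, against 0.04 over all genes. The 4 largest differences among those above 5 FPKM were all increases. Sfn encodes 14-3-3 sigma, a cell cycle inhibitor of epithelial cells, and averaged 404 ± 92.3 FPKM in the CRC cultures and 16.1 ± 13.8 FPKM in the EpiC cultures (SD, n = 3 each; log2 difference 5.44, limma adjusted p = 0.0296). Eda2r, a death receptor of the TNF receptor family, averaged 17.1 ± 3.24 and 0.271 ± 0.0661 FPKM in CRC and EpiC cultures (3.82, adjusted p = 0.00284). Aen, an apoptosis-enhancing nuclease, differed by 2.54 (0.00733), and Plk3, a stress-responsive kinase, by 2.40 (0.0486). The 5 that fell included Fas, the receptor of Fas ligand (−2.06, adjusted p = 0.0292), and Gadd45a, a growth-arrest gene (−1.80, adjusted p = 0.0237); these were named after their values were seen. Calls in this list also depended on Brca1het libraries: 1 gene was called without CRC culture 2 and 1 without EpiC culture 2.

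**Figure D3:**
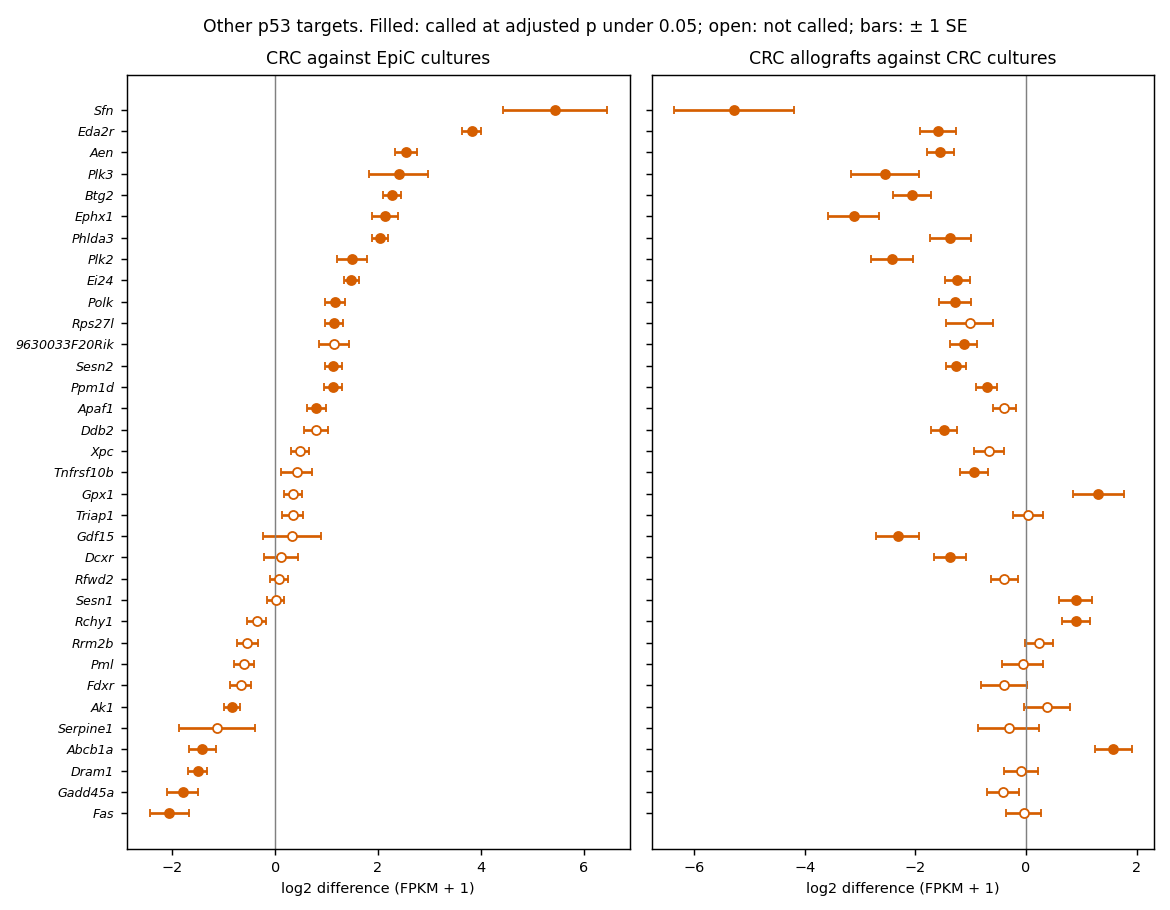
Log2 difference (FPKM + 1, ± 1 SE) of the 34 tested other p53 targets in CRC against EpiC cultures (left) and CRC allografts against CRC cultures (right), sorted by the left panel; filled points were called. At left 14 rose and 5 fell, and at right 4 rose and 17 fell.

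Among genes around p53, the share called was near that over all genes, 23.2%, for the regulators and the cell cycle genes, so their counts show nothing particular to them. Of 15 regulators tested, 3 rose and 1 fell. Cdkn2a, whose Arf product inhibits Mdm2, averaged 59.3 ± 44.2 FPKM in the CRC cultures and 459 ± 216 FPKM in the EpiC cultures (SD, n = 3 each, log2 difference −3.08, limma adjusted p = 0.00692). The Cdkn2a level is that of the gene as a whole, here and in the allografts, and does not give the Arf transcript alone. Ppp1r13l, which encodes the p53 inhibitor iASPP, differed by 2.18 (limma adjusted p = 0.0135). Usp7, a deubiquitinase of Mdm2 and p53, differed by 0.67 (adjusted p = 0.0411). Both p53 relatives were higher in the CRC cultures. Trp63, the p53 relative that marks basal epithelium, averaged 50.1 ± 24 FPKM in the CRC cultures and 7.68 ± 6.17 FPKM in the EpiC cultures (2.77, adjusted p = 0.0194). Of 20 cell cycle genes that p53 is known to lower through p21, 5 rose and 1 fell in the CRC cultures. E2f1, a transcription factor of S-phase genes, averaged 3.23 ± 1.54 FPKM in the CRC cultures and 13.9 ± 1.81 FPKM in the EpiC cultures (−1.86, adjusted p = 0.0124), while the mitotic cyclin gene Ccnb1 averaged 51.2 ± 9.81 and 25.8 ± 4.86 FPKM in CRC and EpiC cultures (0.96, adjusted p = 0.0209). Of 10 BCL2 family partners tested, 4 rose and 2 fell, where 11.4% of all genes rose and 11.7% fell. The 4 that rose were Bok (1.17, limma adjusted p = 0.0399), the prosurvival genes Bcl2l1 (1.16, 0.043) and Mcl1 (1.06, 0.0328), and the effector Bak1 (0.69, 0.0415). The 2 that fell are not named here.

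In the CRC allografts 8 of the 10 members were lower than in the CRC cultures, all but Trp53 and Bax. Of all 12325 genes tested, 39.6% were called in this comparison, 18.4% in the downward direction. The median of the members was −2.36, against 0.04 over all genes.

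Trp53 ranged from 7.02 FPKM in CRC allograft 2 to 32.6 FPKM in CRC allograft 6C, with a median of 15.1 FPKM, within which the values of the CRC cultures fell (log2 difference −0.06 ± 0.43, limma adjusted p = 0.927). The Brca1het allografts were close to each other, at 13.5, 15.9 and 15.1 FPKM. Bax ranged from 40.1 to 93.5 FPKM in the CRC allografts, with a median of 52.7 FPKM, and overlapped the CRC cultures (−0.24 ± 0.35, adjusted p = 0.62).

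Cdkn1a was at 16.4 to 49.98 FPKM in the CRC allografts, with a median of 18.5 FPKM, against 221 to 246 FPKM in the CRC cultures (−3.33 ± 0.36, limma adjusted p = 7.28e-06). CRC allograft 2, which had the lowest Trp53, had the highest Cdkn1a of the 7. Ccng1 was at 17.7 to 36.4 FPKM, with a median of 27.7 FPKM, in the CRC allografts and at 394 to 423 FPKM in the CRC cultures (−3.95 ± 0.27, adjusted p = 8.54e-08). All 7 allografts lay far below all 3 cultures for Ccng1. Perp had the largest difference, with 1.8 to 28.1 FPKM and a median of 6.88 FPKM in the CRC allografts, against 1878 to 2024 FPKM in the CRC cultures (−7.55 ± 1.05, adjusted p = 7.09e-05). Its lowest value was that of CRC allograft 6C, in which epithelial markers also had their lowest sum among the allografts.

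Pmaip1 was at 1.98 to 5.74 FPKM in the CRC allografts, with a median of 3.03 FPKM, and differed from the CRC cultures by −3.53 ± 0.32 (limma adjusted p = 1.27e-06). Trp53inp1 was at 1.35 to 5.17 FPKM, with a median of 2.87 FPKM, and differed by −3.56 ± 0.33 (adjusted p = 1.66e-06). Neither overlapped the CRC cultures. Zmat3, at 4.08 to 7.43 FPKM with a median of 6.44 FPKM in the CRC allografts, differed by −1.39 ± 0.24 (adjusted p = 0.000439). The smallest called differences were those of Mdm2, at 7.34 to 17.5 FPKM (−0.72 ± 0.22, adjusted p = 0.0178), and Bbc3, at 0.615 to 2.52 FPKM (−0.81 ± 0.29, adjusted p = 0.039). Mdm2 was not called without CRC culture 1 (adjusted p = 0.11) or CRC culture 3 (0.095), and Bbc3 lost its call in 8 of the 16 fits that left out 1 library, with adjusted p up to 0.149 (without CRC culture 3).

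Of the wider p53 list, 17 of 34 tested genes fell and 4 rose in the CRC allografts, where 18.4% of all genes fell and 21.2% rose, with a median log2 difference of −0.83, against 0.04 over all genes. Sfn averaged 13.7 ± 9.87 FPKM (SD, n = 7) in the CRC allografts and 404 ± 92.3 FPKM (n = 3) in the CRC cultures (−5.28, limma adjusted p = 0.00159). Ephx1, a microsomal epoxide hydrolase, averaged 22 ± 9.26 and 188 ± 43.1 FPKM in CRC allografts and cultures (−3.12, adjusted p = 0.000109), and the kinases Plk3 (−2.55, adjusted p = 0.00476) and Plk2 (−2.42, adjusted p = 0.000224) were lower as well. Trp63 averaged 0.171 ± 0.147 FPKM in the CRC allografts, against 50.1 ± 24 FPKM in the CRC cultures (−5.26, adjusted p = 2.11e-07). The counts called among regulators, cell cycle genes and BCL2 family partners lay near or below the 39.6% of all genes called. Of 15 regulators, 2 rose and 5 fell, with Cdkn2a at 185 ± 67.6 FPKM in the CRC allografts and 59.3 ± 44.2 FPKM in the CRC cultures (1.63, adjusted p = 0.0364), Ppp1r13l lower by −2.82 (9.56e-05) and Mdm4, a partner of Mdm2, lower by −0.90 (0.0472). Of the 20 cell cycle genes, 3 rose, including E2f1 (1.53, adjusted p = 0.00354) and Birc5 (1.08, adjusted p = 0.0168), and 3 fell, including Ccnb1 (−0.94, adjusted p = 0.00375). Of 12 BCL2 family partners tested, 3 rose and 2 fell, led by Bcl2a1a, a prosurvival gene of leukocytes (2.40, adjusted p = 0.000545), and Bid, a BH3-only gene (−1.44, adjusted p = 0.00167). Epithelial marker sums, with or without Krt5 and Krt14, were lower, and fibroblast and macrophage sums higher, in all 7 CRC allografts than in all 3 CRC cultures, and their part in these differences was not tested.

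In the EpiC allografts 1 of the 10 members, Bbc3, differed from the EpiC cultures, where 14.2% of 12325 genes were called. Bbc3 was at 0.333, 0.224 and 1.36 FPKM in EpiC allografts 7B, 4C and 5A, against 2.31 to 3.71 FPKM in the EpiC cultures (−1.27 ± 0.35, limma adjusted p = 0.028). The groups did not overlap. The call was lost in 4 of the 16 fits that left out 1 library: without EpiC culture 1 (adjusted p = 0.152), EpiC allograft 7B (0.102), EpiC allograft 4C (0.0845) or EpiC culture 2 (0.0517).

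Cdkn1a was at 47.3, 25.1 and 68.5 FPKM in EpiC allografts 7B, 4C and 5A, and at 14.8 to 36.5 FPKM in the EpiC cultures (1.11 ± 0.43, limma adjusted p = 0.106). It overlapped through EpiC allograft 4C and EpiC culture 2, and was called without EpiC culture 2 (1.72, adjusted p = 0.0246) or EpiC allograft 4C (1.51, 0.0347). Ccng1 was at 34.3, 43.4 and 23.7 FPKM in the EpiC allografts and at 21.3 to 33.3 FPKM in the EpiC cultures (0.33 ± 0.32, adjusted p = 0.545). Pmaip1, at 4.88, 10.7 and 4.29 FPKM in the EpiC allografts, lay above all 3 EpiC cultures but did not pass the test (1.04 ± 0.38, adjusted p = 0.0878). Perp was at 45.1, 45.5 and 22.1 FPKM in the EpiC allografts, within the wide range of the EpiC cultures (0.41 ± 1.26, adjusted p = 0.871).

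Trp53 was even among the EpiC allografts, at 14.6, 15.5 and 16.6 FPKM, against 2.09 to 29.4 FPKM in the EpiC cultures (0.98 ± 0.52, limma adjusted p = 0.228). Without EpiC culture 1, the highest EpiC culture, the log2 difference of Trp53 was 1.75 (adjusted p = 0.0267). Bax, at 20.5, 24.5 and 103 FPKM, was uneven, with EpiC allograft 5A the highest, and without that library Bax was called (−1.14, adjusted p = 0.0171), as was Zmat3 (0.96, 0.0188), which was at 8.75, 6.93 and 3.64 FPKM in the EpiC allografts. Trp53inp1 was at 7.6, 2.93 and 1.27 FPKM and Mdm2 at 11.2, 15.1 and 16.2 FPKM in EpiC allografts 7B, 4C and 5A, and neither was called. Among the other targets 2 of 34 rose and 4 fell, where 7.94% of all genes rose and 6.26% fell, with Eda2r at 5.22 ± 2.94 FPKM in the EpiC allografts and 0.271 ± 0.0661 FPKM in the EpiC cultures (2.16, adjusted p = 0.00234) and Fas at 6.55 ± 2.43 FPKM in the EpiC allografts and 39.97 ± 14.6 FPKM in the EpiC cultures (−2.41, adjusted p = 0.000795). Trp63 (−2.36, adjusted p = 0.00454) and Cdkn2a (−2.50, adjusted p = 0.028) were lower in the EpiC allografts.

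The difference between the allograft effects was tested directly in the model of all 16 libraries, as CRC allografts against CRC cultures minus EpiC allografts against EpiC cultures. It was called for 6 members, all more negative in CRC, where 12.2% of 12325 genes were called, 5.87% in that direction. These were Perp (−7.96 ± 1.64, limma adjusted p = 0.00618), Pmaip1 (−4.57 ± 0.50, 5.13e-05), Cdkn1a (−4.44 ± 0.56, 0.000177), Ccng1 (−4.28 ± 0.42, 2.02e-05), Trp53inp1 (−2.75 ± 0.52, 0.00341) and Zmat3 (−2.04 ± 0.37, 0.00287). All 6 were called in each of the 16 fits that left out 1 library. In the EpiC allografts the log2 difference from the EpiC cultures was −0.81 for Trp53inp1 and positive for the other 5, none of them called. Trp53, Mdm2, Bbc3 and Bax were not called, though Trp53 was without EpiC culture 1 (−1.92, adjusted p = 0.0461). Of the 9 fibroblast markers 7 were called in the positive direction in the same contrast (median log2 difference of the list 6.01), and of the 10 epithelial markers Krt5 was called in the negative direction (median of the list −2.51). The fibroblast markers summed to 1391 to 4893 FPKM in the CRC allografts and 29.6 to 55.9 FPKM in the CRC cultures, and to 676 to 3622 FPKM in the EpiC allografts and 3372 to 6317 FPKM in the EpiC cultures. Their part in the members' difference was not tested. This contrast shares the CRC and EpiC cultures with the comparisons given before it, so it is not separate evidence of them. Among the other targets 8 of 34 were more negative in CRC, Eda2r (−3.76, adjusted p = 0.000348) and Ephx1 (−2.61, 0.0295) among them, and 1, Fas, was more positive (2.37, 0.00665).

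Between the allografts themselves, no member was called between CRC and EpiC. Only 1 of 11999 genes was called over the whole table, 0.00833%, with 1011 at an unadjusted p under 0.05. The 2 members with an unadjusted p under 0.05 were Cdkn1a and Perp. Cdkn1a had a median of 18.5 FPKM in the CRC allografts and was at 47.3, 25.1 and 68.5 FPKM in the EpiC allografts (−1.23 ± 0.35, limma adjusted p = 0.39). The groups overlapped through CRC allografts 1, 2 and 12, which were Brca1hom, a genotype with no EpiC allograft. CRC allografts 6C, 10B, 10C and 11C, at 18.5, 16.4, 18.5 and 17.5 FPKM, were below all EpiC allografts. Perp had a median of 6.88 FPKM in the CRC allografts and was at 45.1, 45.5 and 22.1 FPKM in the EpiC allografts (−2.26 ± 0.67, adjusted p = 0.421), and only CRC allografts 11C and 1 reached the EpiC range. Trp53 averaged 16.7 ± 7.94 FPKM (SD, n = 7) in the CRC allografts and 15.6 ± 1.03 FPKM (n = 3) in the EpiC allografts. The other 7 members had limma adjusted p from 0.675 (Bax and Pmaip1) to 0.995 (Trp53inp1).

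Among the CRC allografts the Brca1hom libraries were set against the Brca1het libraries. Brca1 mRNA did not separate them, at 5.26, 3.21 and 3.31 FPKM in Brca1hom allografts 1, 2 and 12 and 3.44, 3.11 and 3.37 FPKM in Brca1het allografts 10B, 10C and 11C, a level summed over the gene that also holds host RNA and is no check of the deleted exon. No member was called by limma, nor was any of 11928 genes (0%), with 1246 genes at an unadjusted p under 0.05. CRC allografts 10B and 10C share a number, and the labels do not say whether they share a host. The only members with an unadjusted p under 0.05 were Cdkn1a and Bax. Cdkn1a was at 30.7, 49.98 and 26.5 FPKM in the Brca1hom allografts and at 16.4, 18.5 and 17.5 FPKM in the Brca1het allografts. Its log2 difference was 0.94 ± 0.27 (limma adjusted p = 0.345). Bax was at 40.1, 51.4 and 52.7 FPKM in the Brca1hom allografts and at 73.7, 93.5 and 57.7 FPKM in the Brca1het allografts (−0.61 ± 0.25, adjusted p = 0.458). Trp53, at 19.6, 7.02 and 13.5 FPKM in the Brca1hom allografts, surrounded the Brca1het values (−0.24 ± 0.35, adjusted p = 0.811). Macrophage markers summed to 6167 to 8037 FPKM in the Brca1hom allografts and to 3616 to 4347 FPKM in the Brca1het allografts, without overlap. Their part in the values of Cdkn1a and Bax was not tested.

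Levels of Trp53 and of its targets can be set side by side in single libraries. CRC culture 1 and EpiC culture 1 had Trp53 at 26.7 and 29.4 FPKM, but Ccng1 stood at 394 FPKM in CRC culture 1 and at 21.3 FPKM in EpiC culture 1. CRC allograft 6C had the highest Trp53 of all 16 libraries, 32.6 FPKM, with Cdkn1a at 18.5 FPKM and Ccng1 at 28.1 FPKM. Over the 10 allografts, which share host tissue as a source of RNA, Pearson's r of log2(FPKM + 1) with Trp53 was between −0.37 (Cdkn1a) and 0.37 (Trp53inp1) for the 9 targets, given as a description. Without CRC allografts 6C and 2, the farthest from the median of Trp53, it was between −0.60 (Ccng1) and 0.53 (Bbc3), and that of Cdkn1a was 0.31 in place of −0.37. The 4 genes most like Trp53 over these 10 libraries, picked as the highest of 11998 compared, were LOC100038947 (r = 0.89, Spearman's rho = 0.88), Arhgap25 (0.85, 0.45), Tagap1 (0.84, 0.56) and Klhl6 (0.83, 0.66). Without the same pair of allografts r was 0.66 for LOC100038947, 0.06 for Arhgap25, 0.22 for Tagap1 and 0.52 for Klhl6, so the likeness of Arhgap25 and Tagap1 rested on those libraries. CRC allograft 6C had the highest macrophage marker sum of the allografts, 12136 FPKM, and the part of that sum in these values was not tested. Reads of Trp53 may also be shared with its processed pseudogene Trp53-ps.

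**Figure D4:**
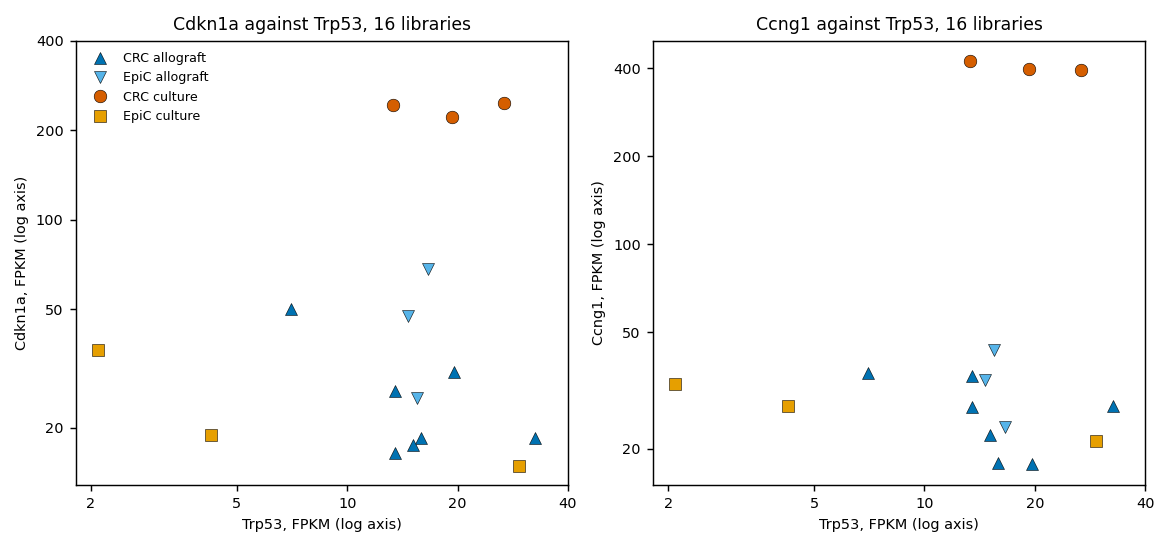
FPKM of Cdkn1a (left) and Ccng1 (right) against FPKM of Trp53 in the 16 libraries of the first table, both axes log; each point is a library and its shape the group. The 3 CRC cultures sit at 221 to 246 FPKM of Cdkn1a and 394 to 423 FPKM of Ccng1, while the EpiC cultures spread over 2.09 to 29.4 FPKM of Trp53 with low levels of both targets.

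The second table holds a further comparison, cultures grown from 2 cancers beside the cancers themselves; it was normalised apart from the first, so levels are not set against it. No member was called by limma in any of its 3 comparisons. CRC cultures of cancers against primary cancers gave 0.889% of 12266 genes called, with 861 genes at an unadjusted p under 0.05; EpiC cultures of cancers against primary cancers gave 0.677% (834 genes) and CRC against EpiC cultures of cancers gave 0.00815% (200 genes). Trp53 was even, at 15 and 21.9 FPKM in CRC cultures of cancers 1 and 2, 18.4 and 19.7 FPKM in EpiC cultures of cancers 1 and 2, and 18.3 and 16.3 FPKM in primary cancers 1 and 2.

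Cdkn1a was at 9.41 and 36.3 FPKM in CRC cultures of cancers 1 and 2, at 33.9 and 7.94 FPKM in the EpiC cultures and at 8.7 and 34.8 FPKM in the primary cancers. Each group thus held 1 high and 1 low library, and the high one was of cancer 2 in the CRC cultures and primary cancers but of cancer 1 in the EpiC cultures. Ccng1 was at 22.4 and 20.9 FPKM in the CRC cultures, 25.9 and 12 FPKM in the EpiC cultures and 13.1 and 18.6 FPKM in the primary cancers (CRC cultures against cancers, log2 difference 0.45 ± 0.56, limma adjusted p = 0.876). Perp was at 120.5 and 305 FPKM in the CRC cultures, 235 and 120.0 FPKM in the EpiC cultures and 117 and 133 FPKM in the primary cancers (0.61 ± 0.65 for CRC cultures against cancers, adjusted p = 0.857). The CRC and EpiC cultures overlapped in both genes (0.28 ± 0.56 for Ccng1 and 0.19 ± 0.65 for Perp, adjusted p = 1 for each).

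Bax was uneven between the CRC cultures of cancers, with 38.7 and 237 FPKM in CRC cultures of cancers 1 and 2, against 39.6 and 53.5 FPKM in the EpiC cultures and 32.3 and 36.2 FPKM in the primary cancers. The high value was that of the library with the largest FPKM sum, and the log2 difference of Bax between CRC cultures and cancers was 1.47 ± 0.84 (limma adjusted p = 0.799) with it and 0.17 without it; the part of that library's sum in this value was not tested. Pmaip1 was at 10.9 and 2.93 FPKM in the CRC cultures, 12.7 and 11.4 FPKM in the EpiC cultures and 5.88 and 40.4 FPKM in the primary cancers, with primary cancer 2 the highest. Trp53inp1, at 7.26 and 1.54 FPKM in the CRC cultures and 4.16 and 5.81 FPKM in the EpiC cultures, was below the 8.61 and 9.01 FPKM of the primary cancers in all 4 cultures, though neither difference was called (−1.10 ± 0.70 for CRC, adjusted p = 0.809, and −0.73 ± 0.70 for EpiC, adjusted p = 1). Bbc3 (1.63 to 6.66 FPKM), Mdm2 (11.5 to 25 FPKM) and Zmat3 (2.23 to 4.97 FPKM) ranged over the 6 libraries without a called difference. None of the 34 other targets tested was called in these comparisons. Their median log2 difference from the primary cancers was 0.12 in CRC and 0.04 in EpiC cultures, against −0.06 and 0.08 over all genes. Plk3, named after its values were seen, was at 1014 and 4378 FPKM in the CRC cultures of cancers. It was at 810.4 and 817 FPKM in the EpiC cultures of cancers and at 11.6 and 179.7 FPKM in the primary cancers. Macrophage markers summed to 101 to 233 FPKM in the CRC cultures of cancers, 69.9 to 146 FPKM in the EpiC cultures of cancers and 1279 to 1478 FPKM in the primary cancers.

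**Figure D5:**
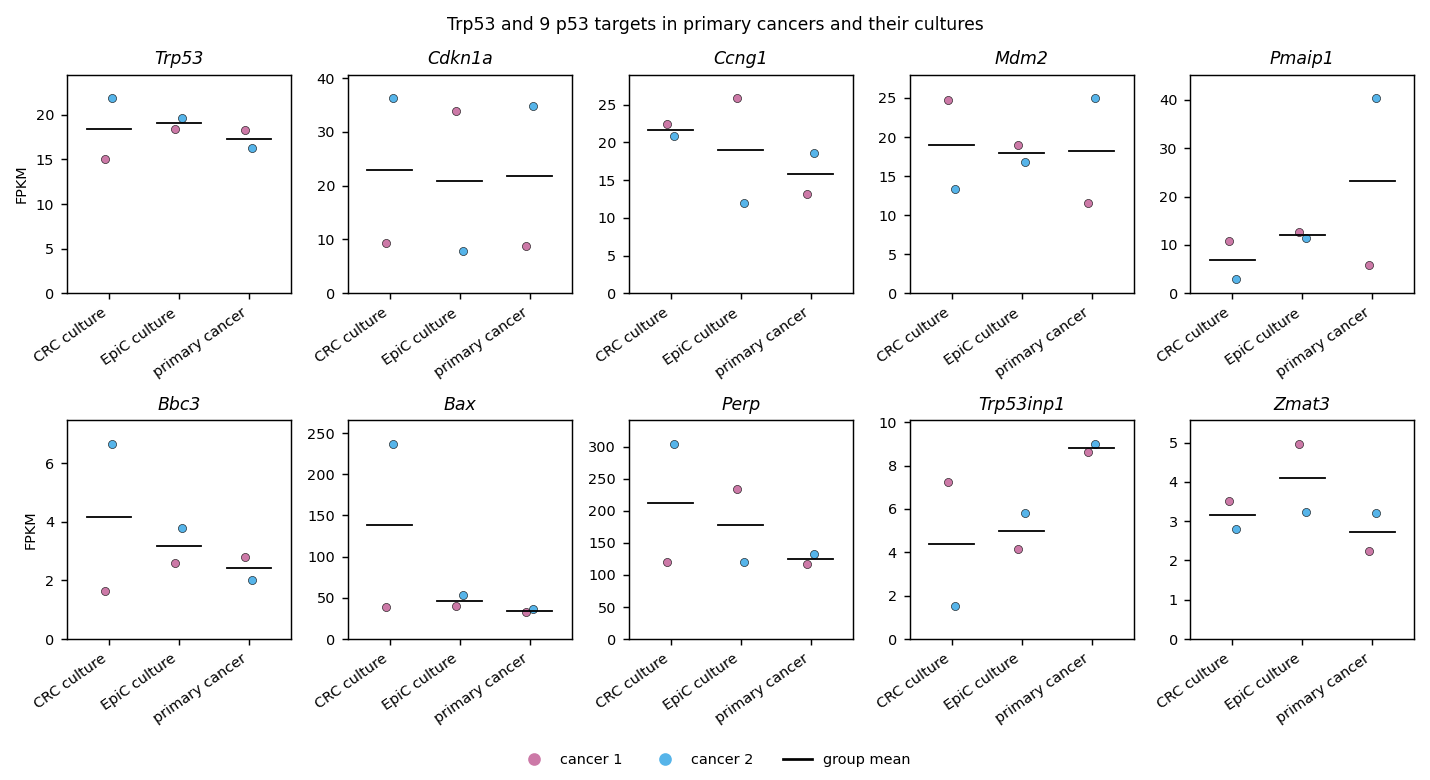
FPKM (linear axes from 0) of the 10 members in the second table; points are libraries coloured by the cancer they came from and lines are group means. No member was called between these groups, and Bax of CRC culture of cancer 2 stands at 237 FPKM.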

How the data were processed

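Poly(A) RNA of 22 libraries was sequenced as paired ends (TruSeq), per the labels' protocols. The authors deposited FPKM values in 2 tables, per the names of the deposited files. FastQC, Trim Galore, TopHat, Cufflinks and the build mm9 are listed in the submitters' processing notes, without versions; the annotation, any use of strand and the scaling were not given in the sources used here. FPKM holds no read counts, so depth is unknown and no counting interval is given. Entries of the second table that shared a symbol (407 entries, 162 symbols) were added up. Each table has its own normalisation, and no test spans both.

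The deposited FPKM values were tested with limma 3.58.1 (R 4.3.3; lmFit, eBayes with trend) on log2(FPKM + 1), which understates changes of low genes, keeping genes that averaged 1 FPKM or more over the fitted libraries; p-values were Benjamini-Hochberg adjusted over all of them. The threshold was 0.05. Libraries were grouped by title. The fits of the cultures, of the allografts and of all 16 libraries of the first table (4 groups) had genotype as a term; the 6 Brca1 CRC allografts and the second table had none. The models left 2 to 10 residual degrees of freedom. The fit code was tested on simulated data. The fits were repeated with a pseudocount of 0.1, without the filter, with one at 5 FPKM, after median-ratio rescaling, with genotype left out, on the Brca1het libraries, with CRC allografts 10B and 10C merged, with cancer as a block, and without each library in turn.

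Named genes were the 10 members, up to 4 called genes of each list with the largest difference (averaging 5 FPKM or more in the higher group), of which some are given, and the 4 genes most like Trp53. The members and lists were chosen with earlier results of these data known. Trp53rkb of the regulators was not found under that symbol. The titles tie same-numbered libraries of the second table to 1 cancer; their deviations from group means correlated across genes at 0.242 (CRC and EpiC cultures), −0.0555 (CRC cultures and cancers) and −0.113 (EpiC cultures and cancers). Half-sites were searched as exact matches in RefSeq windows (GRCm38.p6), with exon overlaps from GENCODE.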

Additional observations from a re-analysis of the deposited data

Results flagged for a closer look

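Cdkn1a in CRC allograft 2, at 49.98 FPKM, was farther from the other 6 CRC allografts (16.4 to 30.7 FPKM) than Dixon's 95% limit allows. It was the only such value among the 10 members tested in that group. Chance alone gives such a value in about 1 of 20 tests, and 10 members were tested. The test pooled the genotypes, and the highest libraries, CRC allografts 2, 1 and 12 (49.98, 30.7 and 26.5 FPKM), were all Brca1hom.

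The allograft effect differed between CRC and EpiC cells for 6 members in limma's interaction contrast (CRC minus EpiC, log2 scale). The differences were −4.44 for Cdkn1a, −4.28 for Ccng1, −4.57 for Pmaip1, −7.96 for Perp, −2.75 for Trp53inp1 and −2.04 for Zmat3.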

How the results depend on the processing

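Over the alternatives, 472 of 504 values of single members in the 26 pairs of member and comparison called under at least 1 setting kept their direction and side of the threshold, 26 lost the call and 6 gained it; none of them changed sign. In the 64 pairs never called, 69 of 860 values had the opposite sign. The members called between CRC and EpiC cultures ranged from 3 to 6 when 1 library was left out, and the other p53 targets called there from 1 to 16; with no filter 11 of those were called. In EpiC allografts against EpiC cultures 0 members were called with the 5 FPKM filter, which removes Bbc3, and 0 to 3 when 1 library was left out. Over all genes, the cultures gave 1658 calls with no filter against 2741. Perp in the cultures was not called with a pseudocount of 0.1 (adjusted p = 0.0543) or no filter (0.084), nor Bbc3 in CRC allografts with a pseudocount of 0.1 (0.0635); the cause was not tested. With the cancer number as a replicate block the members called in the second table stayed at 0 in each comparison, and all genes gave 58, 29 and 0 calls against 109, 83 and 1. Leaving genotype out of the culture model, so that its replicate block is gone, gave the 6 members called and 3557 genes against 2741. Depth is unknown from FPKM, and the culture model left 2 residual degrees of freedom.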
